A study of Mus musculus with 14 samples.

Results

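The 10 genes described here encode subunits of the BAF complex, the mammalian SWI/SNF chromatin remodeller: Smarca2, Smarca4, Smarcb1, Smarcc1, Smarcc2, Smarce1, Arid1a, Arid1b, Actl6a and Actl6b. They were chosen by name and not by their values, although earlier results of these data were known by then. All 10 were found among 17481 named loci of the 59796 assembled loci in the gene table, each as the row of highest mean for its symbol. Expression was measured by RNA-seq in the hippocampus of genotyped mouse embryos of embryonic day 16 to 18, in 14 libraries of 4 groups. The first model, 189N3, is the transgenic line Tg(Dyrk1a)189N3Yah, which carries an extra copy of the kinase gene Dyrk1a (3 libraries), and it was set against 3 libraries of wild-type littermates. The second model, Dp(16)1Yey/+, carries a duplication of the stretch of mouse chromosome 16 from Lipi to Zbtb21 (named Zfp295 in the line's full name), which holds Dyrk1a (4 libraries), and it was set against 4 libraries of its own wild-type littermates. For neuronal cultures the methods name the wild-type strains OF1 and C57BL6, and C57BL6 as the strain crossed with both lines. For the RNA-seq embryos the methods name no strain. Neither the sex of the embryos nor the mating that gave them is stated for the libraries, and whether each library is 1 embryo is not said, so the p-values measure the spread between these libraries. The lines were kept apart in all tests, and replicates carry the numbers 0 to 3 of the sample labels.

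BAF complexes use the energy of ATP to slide or evict nucleosomes. One of the alternative ATPases, Smarca4 (BRG1) or Smarca2 (BRM), drives each complex. Smarcb1, Smarcc1, Smarcc2 and Smarce1 belong to its core, and Arid1a and Arid1b are alternative large subunits that bind DNA. During neurogenesis some subunits are exchanged: Actl6a, an actin-like subunit of the complex of dividing progenitors, gives way to its paralog Actl6b when neurons leave the cell cycle. The microRNAs miR-9-3p (also called miR-9*) and miR-124 are known to repress Actl6a in that switch.

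The seed match behind that repression is shown because the Actl6a and Actl6b levels are the pair that diverged most between the libraries below. RefSeq holds the mature miR-9-3p in the mouse, from 3 genes, and its seed (bases 2 to 8) is in capitals. The 371 bases of 3′ UTR of Actl6a (transcript Actl6a-201) held 1 match to it, at base 38 of the UTR and chr3:32726624-32726647 (GRCm38, plus strand), with the matching bases in capitals. In the 196 bases of 3′ UTR of Actl6b-205 there were 0 matches.
mmu-miR-9-3p: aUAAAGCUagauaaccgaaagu
Actl6a site: tcacctcaacgtctgtAGCTTTAg

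The promoters of both genes are given for the same reason, from 250 bases before to 50 bases after the RefSeq start (GRCm38.p6, both on the plus strand), at chr3:32708296-32708595 for Actl6a and chr5:137553296-137553595 for Actl6b. Capitals mark matches on either strand to the GC box GGGCGG, the CCAAT box CCAAT and the TATA box TATAAA.
Actl6a: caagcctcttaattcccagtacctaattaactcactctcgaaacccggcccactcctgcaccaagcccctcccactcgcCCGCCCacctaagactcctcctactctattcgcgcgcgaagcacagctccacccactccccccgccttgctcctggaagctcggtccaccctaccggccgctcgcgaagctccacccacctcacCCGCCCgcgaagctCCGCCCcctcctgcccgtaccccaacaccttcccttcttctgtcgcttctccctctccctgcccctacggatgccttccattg
Actl6b: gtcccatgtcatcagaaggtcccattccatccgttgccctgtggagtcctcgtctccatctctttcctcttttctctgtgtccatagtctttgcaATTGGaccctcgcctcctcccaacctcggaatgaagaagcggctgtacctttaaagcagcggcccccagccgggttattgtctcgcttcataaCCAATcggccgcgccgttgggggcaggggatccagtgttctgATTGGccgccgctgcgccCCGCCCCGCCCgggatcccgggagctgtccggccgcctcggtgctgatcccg
The Actl6a window held 3 GC boxes and 0 CCAAT boxes, and the Actl6b window held 2 GC boxes, which overlap by 1 base, and 3 CCAAT boxes. Neither window had a TATA box. Of 32851 mouse promoter windows of this length, 35.7% held a GC box, 37.4% a CCAAT box and 13.6% a TATA box. RefSeq windows were at hand for 9 of the 10 genes, with 2 for Arid1a and none for Smarce1, and each of these 10 windows held at least 1 GC box. Only Actl6b among these held a CCAAT box. The windows contained between 21 CG dinucleotides, in Actl6a, and 48, in Smarcc2, and the median over all windows was 7.

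The libraries held between 20809135 and 29098454 fragments, and a gene's value is its fragments divided by 1 size factor for each library. Dyrk1a, which checks the 189N3 label, was at 4248, 3938 and 5877 in the 189N3 libraries and at 2448, 2977 and 2126 in their littermates. These groups do not overlap (1.86-fold; log2 fold change 0.89, SE 0.24; exact permutation p = 0.1, the smallest possible with 3 against 3). The Dp(16)1Yey/+ values were 4781, 2124, 3600 and 3044, against 2488, 2397, 3171 and 3175. The library labelled Dp(16)1Yey/+ replicate 1 thus lay below all 4 littermates for Dyrk1a. Its median log2 difference from the littermate mean over 66 genes of the triplicated stretch was 0.18, whereas replicates 0, 2 and 3 had 0.68, 0.58 and 0.40. The wild-type littermates themselves were at -0.12, -0.10, 0.10 and 0.10, so replicate 1 lay close to them. The 189N3 libraries, which lack the duplication, were at -0.08, -0.09 and 0.32. The fold changes of the 10 genes and the ratios of Smarca2 to Smarca4 and of Actl6b to Actl6a are therefore also given without Dp(16)1Yey/+ replicate 1. Among the wild-type littermates of Dp(16)1Yey/+, replicates 0 and 1 differed by 1.65 times the counting noise and replicates 2 and 3 by 2.05 times, whereas the other pairs within all groups differed by 8.95 to 111 times. These 4 libraries are therefore close to 2 pairs. Libraries also differed in how values varied with the GC content of the transcript: over 12844 named loci the log2 deviation from the locus mean changed by between -0.31 (189N3 replicate 1) and 0.39 (Dp(16)1Yey/+ littermate replicate 3) for each 10% of GC.

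No subunit gene passed the test in either model. With limma on log2(value + 1) and Benjamini-Hochberg adjustment, 0 of the 10 had an adjusted p under 0.05 in 189N3 (smallest adjusted p = 1) and 0 of 10 in Dp(16)1Yey/+ (smallest adjusted p = 0.909). Over all loci tested, 0% were called in 189N3 (0 of 35899) and 0% in Dp(16)1Yey/+ (0 of 36024). The loci not called in 189N3 include Dyrk1a itself, although its groups did not overlap (log2 fold change 0.89, SE 0.24). Dyrk1a passed only the unadjusted rule given next. The adjusted test could thus have missed a subunit change of that size, and the lack of calls does not show that subunit levels were unchanged. At an unadjusted p under 0.05 again 0 of 10 were found in each model, beside 1.87% of all loci in 189N3 and 3.53% in Dp(16)1Yey/+. Neither edgeR nor DESeq2 on the recovered fragments called a subunit at an adjusted p under 0.05. The 189N3 and littermate values overlapped for all 10 genes, and so did those of Dp(16)1Yey/+ and its littermates. Over all loci 4.98% did not overlap in 189N3 and 2.45% in Dp(16)1Yey/+. The fold changes nonetheless leaned in opposite directions: 9 of 10 were above 0 in 189N3 (median log2 fold change 0.25, against -0.04 for all loci) and 7 of 10 below 0 in Dp(16)1Yey/+ (median -0.20, against 0.03). With quantile normalization Smarce1 turned to -0.06 in 189N3. With a GC trend removed from each library, as described further on, 7 of 10 were above 0 in 189N3 (median 0.17) and 6 of 10 below 0 in Dp(16)1Yey/+ (median -0.06). The subunit genes vary together between libraries, so these counts of directions are not 10 separate observations.

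**Figure D1:**
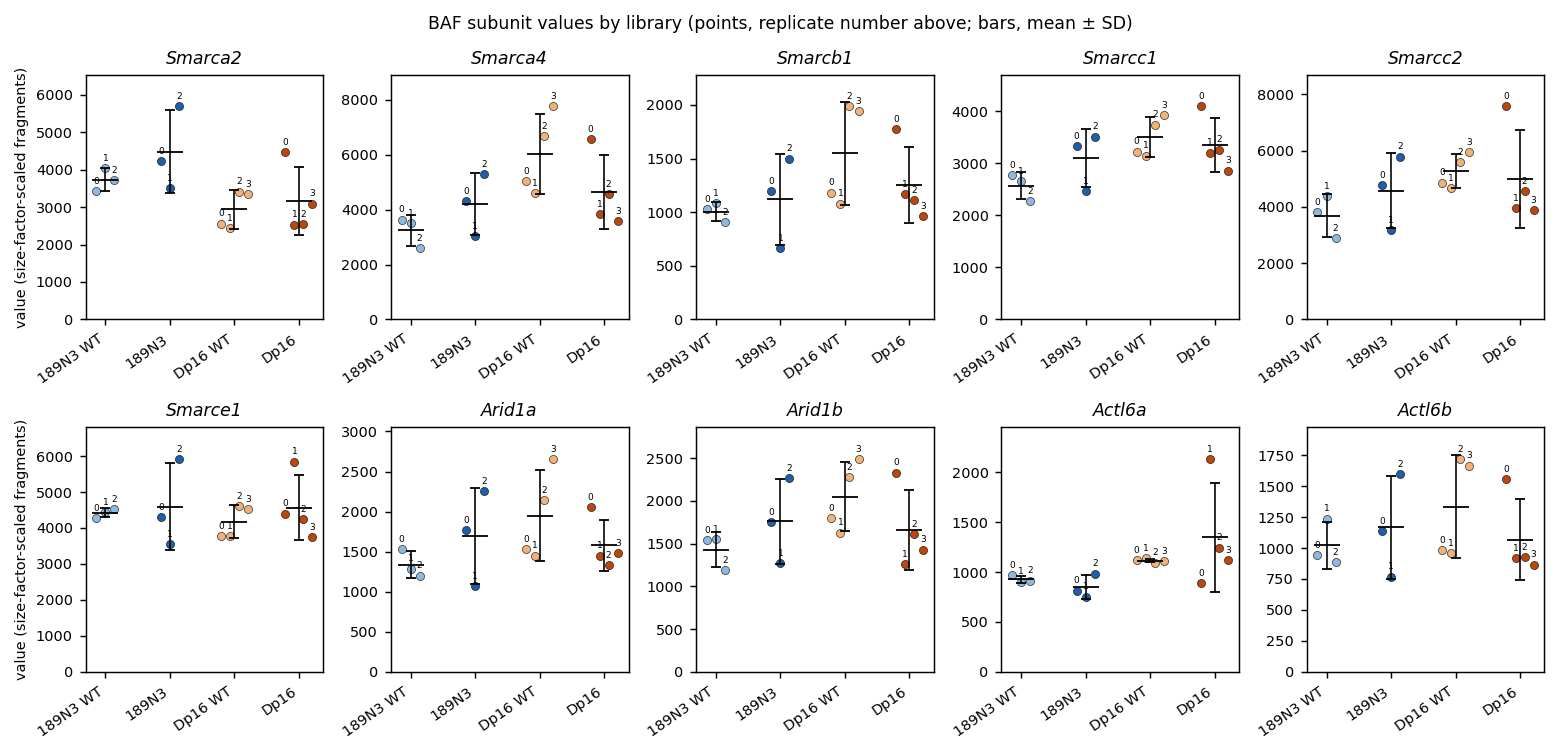
Value of each BAF subunit gene in each library (y axis, fragments divided by the size factor of the library) for 189N3 and Dp(16)1Yey/+ (Dp16) and their wild-type littermates (WT). Points are libraries with their replicate number, and bars are the mean ± SD. The groups overlap in all 10 panels, and the single highest Actl6a value, 2137, is Dp16 replicate 1.

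Of the ATPases, Smarca4 had the largest fold change in both models, and in opposite directions. In 189N3 it was at 4307, 3039 and 5296, and in littermates at 3633, 3507 and 2585 (mean 4214 ± 1131 against 3241 ± 572, SD, n = 3). The lowest 189N3 library lay inside the littermate range and the other two above it. The ratio of the means was 1.3 and the log2 fold change 0.36 (SE 0.26; exact permutation p = 0.3, limma adjusted p = 1). Smarca4 in Dp(16)1Yey/+ was at 6567, 3836, 4569 and 3583, and in littermates at 5041, 4613, 6687 and 7753 (4639 ± 1352 against 6024 ± 1459, SD, n = 4). Replicate 0 was within the littermate range and the other 3 libraries were below it. The log2 fold change was -0.39 (SE 0.23; exact permutation p = 0.171, limma adjusted p = 0.909), and -0.31 (SE 0.25) without replicate 1. The alternative ATPase Smarca2 was at 4225, 3509 and 5683 in 189N3 and at 3418, 4031 and 3728 in littermates (log2 fold change 0.24, SE 0.24). Its Dp(16)1Yey/+ values were 4468, 2531, 2548 and 3092 against 2557, 2435, 3409 and 3338, a log2 fold change of 0.08 (SE 0.21). Leaving out replicate 0 turned this to -0.10, and leaving out replicate 1 gave 0.18.

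The core subunits had smaller fold changes than Smarca4. Smarcb1 ranged from 662 to 1500 in 189N3 and from 905 to 1085 in littermates, with a log2 fold change of 0.08 (SE 0.29), and from 961 to 1771 against 1080 to 1985 in the other line, with -0.29 (SE 0.25). The scaffold subunit Smarcc1 had log2 fold changes of 0.26 (SE 0.23) and -0.07 (SE 0.16), and its paralog Smarcc2 of 0.29 (SE 0.26) and -0.13 (SE 0.21), in 189N3 and Dp(16)1Yey/+. Without Dp(16)1Yey/+ replicate 1 the log2 fold changes in that line were -0.27 for Smarcb1, -0.05 for Smarcc1 and -0.03 for Smarcc2. Smarcc2 was at 7568 in Dp(16)1Yey/+ replicate 0 and between 3876 and 4568 in the other 3 libraries. Smarce1, which has an HMG domain, was the steadiest in littermates of 189N3, at 4284, 4447 and 4527, and spread from 3554 to 5924 in 189N3 (log2 fold change 0.02, SE 0.24). It reached its highest Dp(16)1Yey/+ value, 5845, in replicate 1, while the other 3 libraries were between 3742 and 4398. The log2 fold change of 0.12 (SE 0.17) became -0.01 (SE 0.15) without that library.

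The paralogs Arid1a and Arid1b followed Smarca4. Arid1a was at 1773, 1066 and 2258 in 189N3 and at 1529, 1287 and 1200 in littermates (log2 fold change 0.28, SE 0.28), and at 2053, 1449, 1328 and 1477 in Dp(16)1Yey/+ against 1527, 1450, 2147 and 2659 (-0.28, SE 0.22). Arid1b was at 1746, 1269 and 2262 against 1539, 1547 and 1188 (0.28, SE 0.26), and at 2329, 1259, 1612 and 1428 against 1801, 1627, 2273 and 2491 (-0.32, SE 0.22). Without Dp(16)1Yey/+ replicate 1 the log2 fold changes in that line were -0.24 for Arid1a and -0.21 for Arid1b. In each case the same 189N3 library, replicate 1, was the lowest or next to lowest of the 6 libraries of its line, and the littermate replicates 2 and 3 of the Dp(16)1Yey/+ line were above replicates 0 and 1.

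The progenitor subunit Actl6a varied differently from the genes above, apart from Smarce1. It was at 815, 754 and 985 in 189N3 and at 971, 905 and 915 in littermates (851 ± 120 against 930 ± 35.6, SD, n = 3; log2 fold change -0.14, SE 0.23). Its littermate values in the Dp(16)1Yey/+ line lay within a narrow range, at 1119, 1138, 1096 and 1111, and the Dp(16)1Yey/+ libraries were on both sides of it, at 888, 2137, 1245 and 1120. The log2 fold change of 0.19 (SE 0.23) rested on replicate 1, the library with the weak chromosome 16 dosage, and was -0.06 (SE 0.16) without it. The neuronal subunit Actl6b was at 1137, 769 and 1594 in 189N3 and 941, 1237 and 886 in littermates (log2 fold change 0.15, SE 0.28), and leaving out 189N3 replicate 2 turned this to -0.11. The Dp(16)1Yey/+ libraries had 1554 in replicate 0 and 916, 928 and 866 in the others, and their littermates had 986 and 961 in replicates 0 and 1 and 1721 and 1666 in replicates 2 and 3. The log2 fold change was -0.31 (SE 0.26; exact permutation p = 0.171, limma adjusted p = 0.909), and -0.25 (SE 0.29) without replicate 1. The Dp(16)1Yey/+ mean of 1066 thus lies between the levels of these littermate pairs, which were 973 and 1694. In whole tissue, fewer cells of a type and less RNA for each cell cannot be told apart.

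Among the subunits, levels can be compared per length, with the longest protein-coding transcript of each gene in GENCODE vM21 as the length. On this scale of value per kilobase, averaged over the 14 libraries, Smarce1 was first (1516 ± 241, SD), followed by Smarcc2 (1031 ± 269), Smarcb1 (756 ± 239), Smarca4 (728 ± 235), Actl6b (725 ± 211), Smarca2 (591 ± 153), Smarcc1 (550 ± 92.5), Actl6a (540 ± 166), Arid1a (202 ± 56) and Arid1b (154 ± 38.2). Smarce1 exceeded Smarcc2 in 13 of 14 libraries, Smarcc2 exceeded Smarcb1 in 14, and both ARID genes were below the other 8 and in the same order in 14. From Smarcb1 to Actl6a, neighbours changed places: Smarcb1 was above Smarca4 in 9 libraries, Smarca4 above Actl6b in 7, Smarca2 above Smarcc1 in 8 and Smarcc1 above Actl6a in 8. These levels assume that the chosen transcript stands for the locus.

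Of the subunits, 8 had values that varied together from library to library. To set aside the groups, each value was taken as its log2 deviation from the mean of its group. Without Actl6a and Smarce1, the 28 pairs of genes had Pearson correlations between 0.75 and 0.98 over the 14 libraries, and over all 45 pairs the median was 0.85. These are descriptions: the libraries share depth, tissue and base composition, and there is no p. The median deviation of the 10 genes was -0.43 in 189N3 replicate 1, where 0 of 10 were above the group mean, 0.39 in 189N3 replicate 2, where 10 of 10 were above it, and 0.53 in Dp(16)1Yey/+ replicate 0, where 8 of 10 were. In that last library Actl6a deviated by -0.52, and in Dp(16)1Yey/+ replicate 1 by 0.74. In the littermates of that line, replicates 2 and 3 exceeded replicates 0 and 1 by between 0.27 (Smarcc1) and 0.80 (Smarcb1 and Actl6b) on the log2 scale for 9 genes, and for Actl6a the difference was -0.03.

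How values varied with GC content moved with this pattern for most subunits. The members' transcripts have between 48.4% (Smarcc1) and 57.0% GC (Actl6b), and 8 of the 10 lie above the median of the 13075 named loci. Within groups, the deviation of Smarca4 and of Arid1b correlated with the GC slope of the library at r = 0.93, those of Smarcc1 and Smarcc2 at 0.90, those of Actl6b, Arid1a and Smarcb1 at 0.84 and that of Smarca2 at 0.82 (14 libraries, as a description). For Smarce1 it was 0.21 and for Actl6a -0.48. By r, Smarcc1 followed the slope with the lowest GC content of the 10, and Smarce1, at 51.7% GC, less than Smarca2, at 51.1%. Such an r leaves out the size of the swings. The SD within groups on the log2 scale was smallest for Smarcc1 (0.20) and largest for Smarcb1 (0.43), which has 55.2% GC. When a smooth GC trend was removed from each library, an alternative added after the values were seen, the median correlation over the 45 pairs dropped to 0.40. The spread within groups shrank from an SD of 0.36 to 0.13 on the log2 scale for Smarca4 and from 0.42 to 0.17 for Actl6b, whereas that of Actl6a was 0.31 before and 0.33 after. The deviations also correlated with those of the summed neuronal markers, from r = 0.83 (Smarcc1 and Smarcc2) to 0.98 (Actl6b), other than those of Smarce1 (0.62) and Actl6a (-0.16). With the summed progenitor markers r was 0.88 for Actl6a and 0.59 for Smarce1. These last 2 genes correlated with each other at 0.65, and at 0.86 with the GC trend removed, the highest of the 45 pairs then, and both had their highest value in Dp(16)1Yey/+ replicate 1 within that line. The part of base composition and of these cells in the pattern was not tested.

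**Figure D2:**
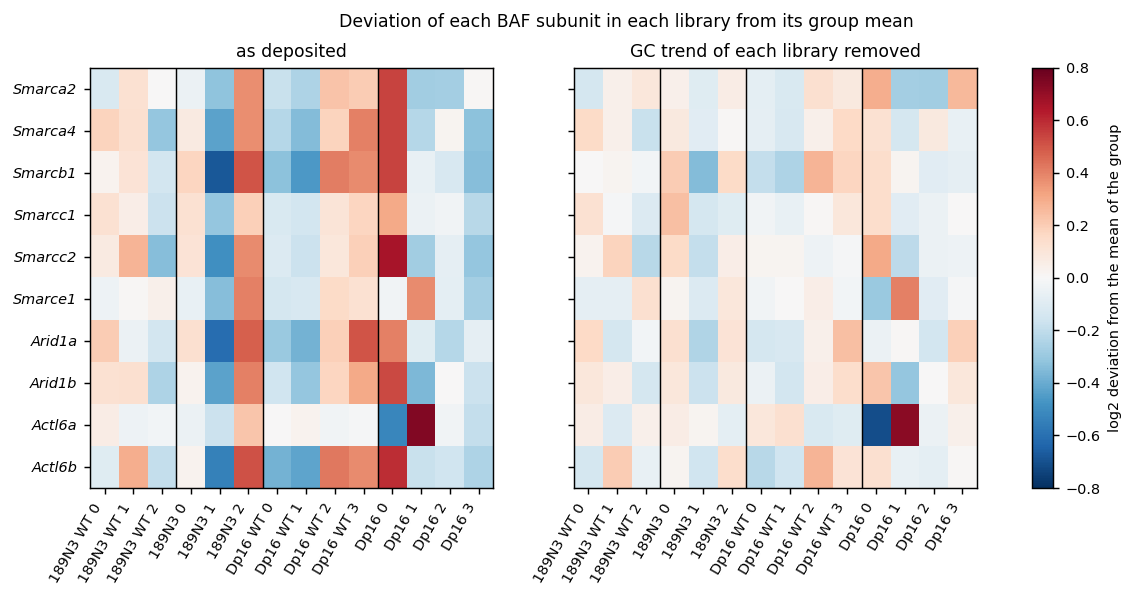
Log2 deviation of each subunit gene (rows) in each library (columns) from the mean of its group, as deposited and with the GC trend of each library removed. Most rows share their colours in the first panel (189N3 replicate 1 low; 189N3 replicate 2 and Dp16 replicate 0 high). In the second panel the largest deviations left are those of Actl6a in Dp16 replicates 0 and 1.

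With the GC trend removed, the fold changes moved towards 0 in Dp(16)1Yey/+ for Smarca4 (-0.19, SE 0.10), Smarcb1 (-0.11, SE 0.13), Arid1a (-0.07, SE 0.11) and Actl6b (-0.09, SE 0.12), and that of Smarcc2 became 0.03. Smarca2 (0.17, SE 0.15), Smarce1 (0.22, SE 0.14) and Actl6a (0.24, SE 0.25) moved away from 0. Smarcc1 (-0.05, SE 0.08) and Arid1b (-0.20, SE 0.12) moved towards it. In 189N3 Smarca4 kept 0.27 (SE 0.11; limma adjusted p = 0.922), 1 of 10 subunits at an unadjusted p under 0.05 beside 4.26% of the loci in that fit. Actl6a was at -0.21 (SE 0.10) there. In Dp(16)1Yey/+ 0 of 10 passed this rule, beside 3.29% of the loci. No subunit had an adjusted p under 0.05 in these fits.

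**Figure D3:**
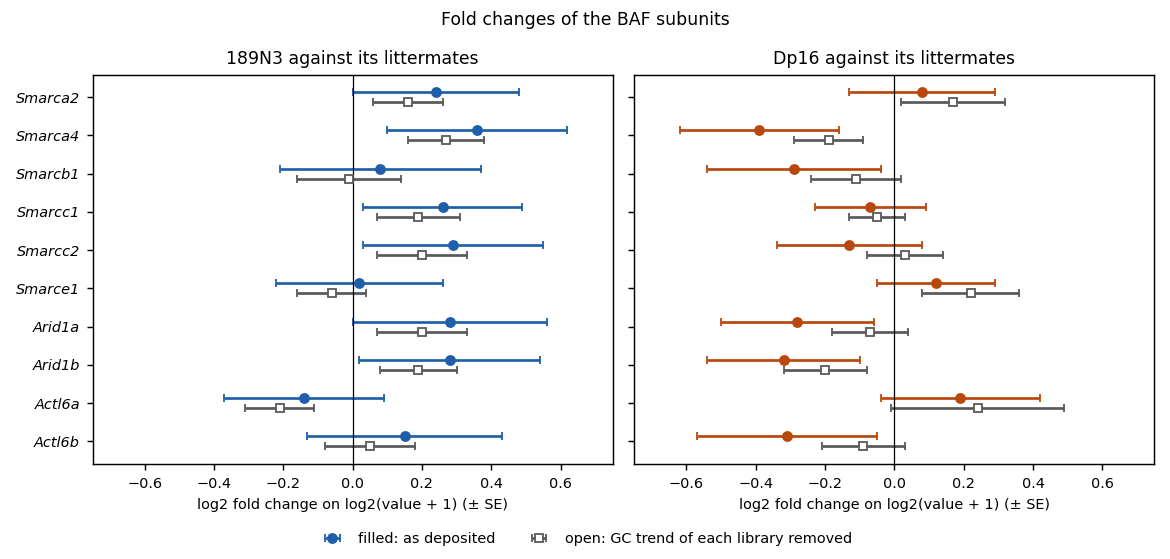
Log2 fold change (± SE of limma, x axis) of each subunit gene in 189N3 (n = 3 against 3) and Dp(16)1Yey/+ (Dp16, n = 4 against 4) against wild-type littermates, as deposited (filled) and with the GC trend of each library removed (open). Smarca4 lies at 0.36 and 0.27 in 189N3 and at -0.39 and -0.19 in Dp16.

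Whether the models differed was asked by fitting all 4 groups at once and subtracting the 189N3 fold change from the Dp(16)1Yey/+ one (an interaction term). No subunit passed, with 0 of 10 at an adjusted p under 0.05 (0% of 36045 loci) and 0 of 10 at an unadjusted one (2.66% of loci). Smarca4 came nearest, with a difference of -0.74 (SE 0.35; limma adjusted p = 0.922), followed by Arid1b with -0.60 (SE 0.34; limma adjusted p = 0.922). The difference was above 0 for 2 genes, Actl6a (0.33, SE 0.32) and Smarce1 (0.09, SE 0.27). With the GC trend removed Smarca4 differed by -0.45 (SE 0.15; limma adjusted p = 0.673), 1 of 10 at an unadjusted p under 0.05 beside 5.88% of the loci in that fit. Without Dp(16)1Yey/+ replicate 1 its difference was -0.67 (SE 0.37; limma adjusted p = 0.997). Smarca4 was also at an unadjusted p under 0.05 with quantile normalization (-0.74, beside 2.86% of loci) and in DESeq2 (-0.82, beside 2.46%). It was so in 5 of the 14 fits that left out a library, beside 2.14% to 9.55% of loci. In those fits the smallest limma adjusted p was 0.511. They share most libraries with the main fit, where its unadjusted limma p was 0.0514, so they are not separate observations.

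The balance of paralogs was measured as the log2 ratio of their values in each library, which cancels whatever acts on both alike. The ratio of Smarca2 to Smarca4 was -0.56, -0.60, -0.84 and -0.21 in Dp(16)1Yey/+ and -0.98, -0.92, -0.97 and -1.22 in littermates. All 4 Dp(16)1Yey/+ libraries were above all 4 littermates, by 0.47 on average (-0.55 ± 0.26 against -1.02 ± 0.13, SD, n = 4; exact two-sided permutation p = 0.0286, the smallest possible, and 0.229 after adjustment over the 8 ratio tests). The adjusted p could not have gone below 0.0571 even with all 4 ratios of this line fully apart, so no ratio could pass 0.05 after correction. With the GC trend removed it was 0.36 and the groups overlapped (exact permutation p = 0.0571). Without Dp(16)1Yey/+ replicate 1 it was 0.49, with the groups still apart and p = 0.0571, the smallest that 3 against 4 allow in this exact test. Averaging each of the nearly alike littermate pairs left 0.47, with the groups still apart and an exact permutation p of 0.133, the smallest that 4 against 2 allow. In 189N3 the same ratio was -0.03, 0.21 and 0.10, and in its littermates -0.09, 0.20 and 0.53, a difference of -0.12 (exact permutation p = 0.7). The wild-type littermates of both lines were themselves apart, at 0.21 ± 0.31 (n = 3) and -1.02 ± 0.13 (n = 4), with Smarca4 at 3241 ± 572 and 6024 ± 1459. The GC slopes of these libraries were apart too, from -0.283 to -0.102 in the 189N3 littermates and from 0.074 to 0.394 in those of Dp(16)1Yey/+. The Smarca4 transcript has 55.9% GC and that of Smarca2 51.1%. Lines and preparations cannot be told apart in this comparison of littermates, which was not tested, and neither was the part of base composition in it.

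The ratio of Actl6b to Actl6a, the neuronal over the progenitor subunit, was the most variable. It was 0.48, 0.03 and 0.69 in 189N3 and -0.05, 0.45 and -0.05 in littermates, a difference of 0.28 (0.40 ± 0.34 against 0.12 ± 0.29; exact permutation p = 0.2, adjusted 0.8). In Dp(16)1Yey/+ it ran from -1.22 in replicate 1 to 0.81 in replicate 0, with -0.42 and -0.37 in replicates 2 and 3. The littermates fell into their pairs, at -0.18 and -0.24 and at 0.65 and 0.58. The difference of -0.50 (exact permutation p = 0.343, adjusted 0.8) was smaller than the SD of 0.84 within Dp(16)1Yey/+. It moved with single libraries: without replicate 1 it was -0.20 (exact permutation p = 0.629), and without replicate 0 it was -0.87 (exact permutation p = 0.0571, the smallest possible). In 189N3 leaving out a library gave between 0.14 (replicate 2) and 0.47 (replicate 1). The transcripts of this pair have 57.0% (Actl6b) and 49.1% GC (Actl6a). With the GC trend removed the difference was 0.26 in 189N3 (exact permutation p = 0.3) and -0.33 in Dp(16)1Yey/+ (exact permutation p = 0.486). Smarcc2 to Smarcc1 was the steadiest ratio in the littermates of that line, at 0.58 ± 0.02, and at 0.53 ± 0.25 in Dp(16)1Yey/+. It differed by 0.03 in 189N3 and by -0.05 in Dp(16)1Yey/+. Arid1b to Arid1a differed by -0.01 and -0.05. The exact permutation p of these 4 tests lay between 0.7 and 0.8.

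**Figure D4:**
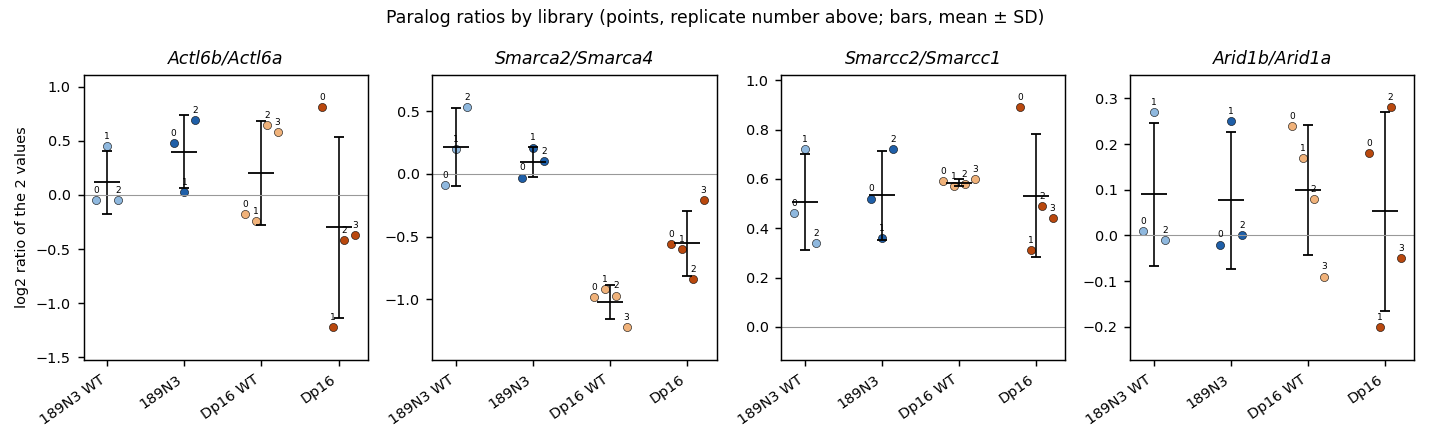
Log2 ratio of the values of 4 paralog pairs in each library (y axis; points with replicate numbers; bars, mean ± SD; WT, wild-type littermates; Dp16, Dp(16)1Yey/+). The Smarca2/Smarca4 ratio of all 4 Dp16 libraries lies above that of their 4 littermates, and the other pairs overlap between model and littermates.

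Actl6a and Actl6b can be set beside the cells in which they are known to act. The summed value of 12 markers of radial glia and dividing progenitors was 85582 in Dp(16)1Yey/+ replicate 1, the library with the highest Actl6a value, and between 43967 and 66996 in the other 13. Actl6a was lowest, at 754, where this sum was lowest, in 189N3 replicate 1. Over 10 markers of neurons past their last division, the sum ran from 107943 to 149333 in the littermates of Dp(16)1Yey/+ and from 115312 to 165208 in that model, with the higher values in the libraries of high Actl6b. All 12 and all 10 markers were above 0 in all libraries. Of other cells, 9 striatal markers summed to 4617 and 4787 in littermate replicates 2 and 3, the pair with the higher Actl6b, and to 2214 and 2108 in replicates 0 and 1. The 9 hippocampal markers summed to 8454 and 9348 in that higher pair and to 16398 and 15602 in the other, and all of them were detected in all libraries. Markers of oligodendrocyte precursors, 5 genes, summed to 1079 and 1148 in replicates 2 and 3 and to 611 and 583 in replicates 0 and 1, and those of choroid plexus, also 5, to 983 and 1280 and to 3099 and 3073. All 5 oligodendrocyte precursor markers had log2 fold changes above 0 in 189N3 (median 0.55) and below 0 in Dp(16)1Yey/+ (median -0.53). Of them 1 and 0 had an unadjusted limma p under 0.05, beside 1.87% and 3.53% of all loci. Of the 12 progenitor markers 10 were below 0 in 189N3 (median -0.13) and 8 above 0 in Dp(16)1Yey/+ (median 0.11). All 10 neuronal markers were above 0 in 189N3 (median 0.21), and 6 of 10 below 0 in Dp(16)1Yey/+ (median -0.15). Of these, 1 neuronal marker in Dp(16)1Yey/+ had an unadjusted limma p under 0.05. Striatal markers were above 0 for 7 of 9 in 189N3 (median 0.33) and below 0 for 8 of 9 in Dp(16)1Yey/+ (median -0.42). In 189N3 1 of them was at that p, and in Dp(16)1Yey/+ 0. Hippocampal markers were below 0 for 5 of 9 in 189N3 (median -0.01) and for 7 of 9 in Dp(16)1Yey/+ (median -0.45), with 0 at that p. Blood markers, 7 genes led by globins, summed to 55549 in Dp(16)1Yey/+ replicate 1 and to between 6149 and 22797 in the other 3, and to between 33840 and 54284 in 189N3 littermates against 13867 to 22164 in 189N3. All 7 were below 0 in 189N3 (median -1.35) and above 0 in Dp(16)1Yey/+ (median 1.25), with 7 and 1 at an unadjusted limma p under 0.05. All 7 skin markers tested in 189N3 were below 0 (median -1.18), 4 of them at that p. In Dp(16)1Yey/+ 2 of 3 skin markers tested were above 0. The part of these cells in the subunit values was not tested.

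**Figure D5:**
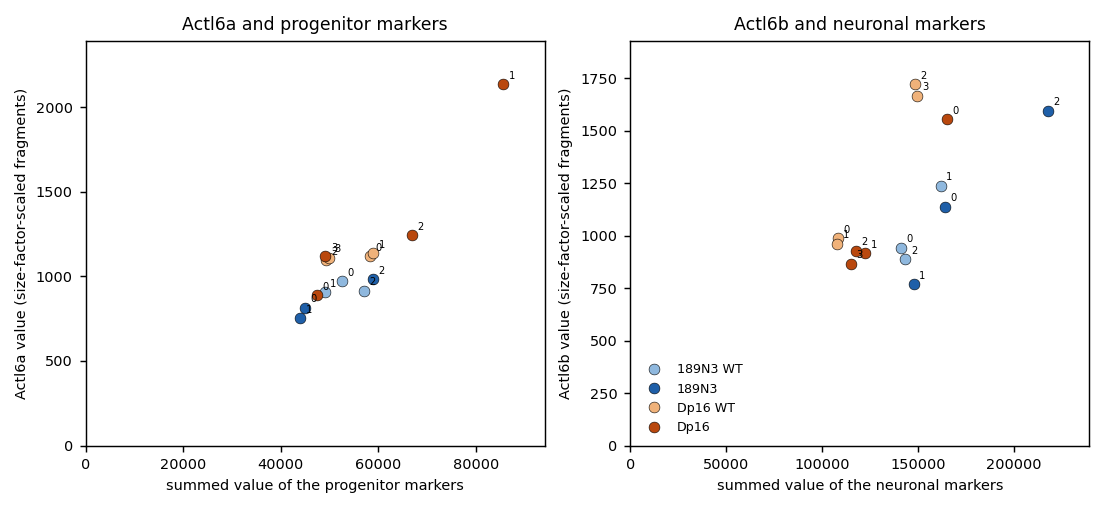
Actl6a value against the summed value of 12 progenitor markers, and Actl6b value against that of 10 neuronal markers, in each of the 14 libraries (numbers, replicates; WT, wild-type littermates; Dp16, Dp(16)1Yey/+). Dp16 replicate 1 stands at 2137 for Actl6a and 85582 for the progenitor markers.

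The genes whose levels followed each paralog most closely were taken from 11236 other named loci with a mean of at least 100, by Pearson correlation of log2(value + 1) over all 14 libraries. For Actl6a they were Kif2c, a mitotic kinesin (r = 0.98), Ube2c, a ubiquitin-conjugating enzyme of the anaphase-promoting complex (r = 0.98), and Cdca3 (r = 0.97). Without the libraries farthest from the median Actl6a level, Dp(16)1Yey/+ replicate 1 and 189N3 replicate 1, r was 0.95, 0.92 and 0.89. For Actl6b they were Fam134a (r = 0.99), Cxx1a (r = 0.99) and Sult4a1, a sulfotransferase of the brain (r = 0.98), and all 3 kept 0.98 without its 2 farthest libraries. These genes were picked for their correlation, so it carries no p.

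Isoforms were analysed with the same test on the table of assembled transcripts, where the 10 loci have 53 isoforms. In 189N3 2 of 45 tested had an unadjusted limma p under 0.05, beside 2.56% of all isoforms, and in Dp(16)1Yey/+ 0 of 44, beside 3.48%. No isoform of a subunit had an adjusted p under 0.05. An isoform of Smarca2 that differs from the reference in its junctions (TCONS_00046812) was at 1128, 953 and 1322 in 189N3 and at 813, 886 and 673 in littermates (log2 fold change 0.52, SE 0.21; exact permutation p = 0.1, the smallest possible with 3 against 3; limma adjusted p = 1). Its log2 fold change in Dp(16)1Yey/+ was 0.02 (SE 0.26). The other was a minor form of Smarca4 (TCONS_00095458), at 136, 60.6 and 129 against 59.1, 38.4 and 53.8, which made up 1.64% of the locus. Most of the locus fell to 1 isoform in Arid1b (94%), Arid1a (93%) and Smarcb1 (77.3%), and to 2 in Actl6b (55.8% and 40.3%). The leading isoforms had shares of 56.4% in Actl6a, 54.1% in Smarce1, 42.1% in Smarcc1, 40.4% in Smarca4, 36.4% in Smarcc2 and 36.3% in Smarca2. None of these leading isoforms passed either rule in either model. The shares are estimates from reads that several isoforms have in common, and the division of Actl6a between its 2 isoforms varied from 37.8% to 75.7% for the leading one over the libraries.

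Of 23 other SWI/SNF subunit genes listed, 21 were named and tested. Of these, 0 had an adjusted or unadjusted p under 0.05 in limma on the values as deposited, in either model or in the difference between them. In 189N3 18 fold changes were above 0 and 3 below (median 0.18), and in Dp(16)1Yey/+ 6 were above and 15 below (median -0.17). Among the subunits exchanged with Actl6a and Actl6b, Phf10 and Dpf2 of the progenitor complex had log2 fold changes of 0.08 (SE 0.29) and 0.10 (SE 0.22) in 189N3 and of -0.08 (SE 0.17) and -0.23 (SE 0.17) in Dp(16)1Yey/+. Their neuronal counterparts Dpf1 and Dpf3 had 0.43 (SE 0.28) and 0.32 (SE 0.26) in 189N3 and -0.28 (SE 0.30) and -0.50 (SE 0.30) in Dp(16)1Yey/+. Dpf1 was at 1062, 679 and 1452 in 189N3 and at 703, 876 and 700 in littermates. In Dp(16)1Yey/+ it was at 1533 in replicate 0 and between 712 and 793 in the others, the pattern of Actl6b. That pattern was not particular to the neuronal counterparts. Smarcd1 was at 1849 in replicate 0 and between 935 and 1013 in the others, and Smarcc2 at 7568 and between 3876 and 4568. Ss18, of the progenitor complex, had -0.04 (SE 0.23) and 0.12 (SE 0.18), and its neuronal paralog Ss18l1 0.33 (SE 0.25) and -0.15 (SE 0.24). The zinc finger subunits Bcl11a and Bcl11b had 0.20 (SE 0.23) and 0.26 (SE 0.28) in 189N3, and 0.08 (SE 0.14) and -0.30 (SE 0.26) in Dp(16)1Yey/+. Smarcd1, Smarcd2 and Smarcd3, alternative core subunits, had 0.30, -0.26 and 0.08 in 189N3 and -0.30, 0.12 and -0.17 in Dp(16)1Yey/+, with SEs between 0.16 and 0.31. With the GC trend removed, a fit that held 19 of the 21, without Gltscr1 and Gltscr1l, the median was 0.06 in 189N3 and -0.03 in Dp(16)1Yey/+. There Dpf1 (0.33, SE 0.11) and Smarcd2 (-0.35, SE 0.13) had an unadjusted limma p under 0.05 in 189N3, beside 4.26% of loci. Smarcd2 also did so in the difference between the models (0.70, SE 0.22), beside 5.88%. The limma adjusted p was 0.922 for both genes in 189N3 and 0.673 for Smarcd2 in the difference.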

How the data were processed

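RNA-seq values came from a deposited gene table and a deposited isoform table of 14 libraries. The authors mapped paired-end reads with Bowtie and TopHat to mm10, merged Cufflinks assemblies and corrected the quantification for fragment bias and for reads mapping to several places (versions not given in the sources used here). The methods describe stranded total RNA, whereas the labels give polyA RNA. The deposited signal values are fragments divided by 1 size factor per library: 100% of nonzero values were whole multiples of 1 step (tolerance 0.05). Isoform values are estimated shares. Symbols were assigned by matching isoform sums (49046 loci matched). Tests used limma 3.58.1 in R 4.3.3 with a trend on log2(value + 1), a mean of at least 10, no covariate and Benjamini-Hochberg adjustment at 0.05. They were checked on simulated data with larger changes than that of Dyrk1a and noise independent between genes. That check does not show how the test does with smaller changes or with the shared swings of these libraries. Fold changes on the log2(value + 1) scale understate changes of low genes. The recovered fragments were also tested in edgeR 4.0.16, which called 0 loci in each comparison, and in DESeq2 1.42.0, which called 15 in 189N3, 8 in Dp(16)1Yey/+ and 0 for the difference. Ratios were tested by exact permutation (SciPy 1.17.1). Other alternatives were pseudocounts of 0.1 and 10, filters, scalings, the replicate block and left-out libraries. The GC trend was a lowess (span 0.3) of the deviation from the locus mean against transcript GC (GENCODE vM21). The members and lists were chosen with earlier results of these data known. Named were all members, listed other subunits, the 3 loci most like Actl6a and Actl6b, and each member's leading isoform with any isoform at an unadjusted p under 0.05. The minor Smarca4 isoform has a mean under 100, which the rule for isoforms asks for, and was named after its values were seen.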

Additional observations from a re-analysis of the deposited data

Results flagged for a closer look

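In Dp(16)1Yey/+, the highest Actl6b value, 1554 in replicate 0, stood apart from the other 3 libraries (866 to 928) by more than the 95% critical value of Dixon's test for 4 samples. It was 1 flag among 28 groups of 4 examined, and chance gives about 1 in 20.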

How the results depend on the processing

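No subunit gene had an adjusted p under 0.05 in any of the alternatives run, and of 680 fold changes recomputed 663 kept their direction. Apart from left-out libraries, 5 turned: with the GC trend removed Smarcb1 (-0.01) and Smarce1 (-0.06) in 189N3, Smarcc2 in Dp(16)1Yey/+ (0.03) and Smarca2 in the difference between the models (0.02), and with quantile normalization Smarce1 in 189N3 (-0.06). Leaving out libraries in turn gave log2 fold changes in 189N3 of -0.17 to 0.42 for Smarcb1, -0.18 to 0.19 for Smarce1 and -0.11 to 0.41 for Actl6b, in Dp(16)1Yey/+ of -0.10 to 0.18 for Smarca2, -0.17 to 0.00 for Smarcc1, -0.01 to 0.20 for Smarce1 and -0.06 to 0.37 for Actl6a, and in the difference of -0.34 to 0.03 for Smarca2 and -0.08 to 0.29 for Smarce1. Without 189N3 replicate 1, Smarca4 (0.58), Smarcc2 (0.53) and Arid1a (0.59) had an unadjusted limma p under 0.05 in 189N3, beside 6.78% of loci; without Dp(16)1Yey/+ replicate 0, Smarca4 (-0.57), Smarcc2 (-0.34) and Arid1b (-0.50) did so in that line, beside 12.7%. Other libraries lowered the same values: without 189N3 replicate 2 they were 0.17 for Smarca4, 0.10 for Smarcc2 and 0.05 for Arid1a (Smarca2 0.05, Arid1b 0.07), and without littermate replicate 3 of Dp(16)1Yey/+ Smarca4 was at -0.25 and Arid1a at -0.11. For the difference between the models, an unadjusted p under 0.05 was found for Smarca4, Arid1a and Arid1b without 189N3 replicate 1 (-0.96, -0.87 and -0.82, beside 5.45% of loci), and for Smarca4 and Arid1b without Dp(16)1Yey/+ replicate 0 (-0.93 and -0.78, beside 9.55%). It was found for Smarca4 alone without littermate replicate 0 of 189N3 (-0.83, beside 2.14%) and littermate replicates 0 and 1 of Dp(16)1Yey/+ (-0.82 and -0.86, beside 2.81% and 3.35%).

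Over all loci, calls in 189N3 were 4 with median-ratio size factors, 72 with the replicate block, 15 in DESeq2 and 0 to 28 when a library was left out. In Dp(16)1Yey/+ they were 8 in DESeq2 and 0 to 3 without a library, and for the difference 0 to 1. The isoform test called 22 in 189N3 (3 and 14 with pseudocounts of 0.1 and 10, 172 without a filter, 0 at a mean of at least 100, 0 with the replicate block, 0 to 12 without a library) and 13 in Dp(16)1Yey/+ (45 without a filter, 0 at a mean of at least 100, 0 with the block, 4 to 43 without a library). The cause was not tested.

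The higher Smarca2/Smarca4 ratio in Dp(16)1Yey/+ was 0.47 with the replicate block (exact p = 0.125, the smallest that 4 pairs allow), 0.36 with the GC trend removed (exact permutation p = 0.0571), 0.47 with nearly alike littermates averaged (exact permutation p = 0.133, the smallest possible) and 0.36 to 0.57 without a library (exact permutation p = 0.0571 each time, the smallest possible). Actl6b/Actl6a ran from -0.87 to -0.20 in Dp(16)1Yey/+ and from 0.14 to 0.47 in 189N3. Smarcc2/Smarcc1 turned to 0.08 in Dp(16)1Yey/+ with the GC trend removed. Without a library, Smarcc2/Smarcc1 ran from -0.17 to 0.02 and Arid1b/Arid1a from -0.12 to 0.04 in Dp(16)1Yey/+, and in 189N3 Smarca2/Smarca4 ran from -0.27 to 0.04, Smarcc2/Smarcc1 from -0.07 to 0.13 and Arid1b/Arid1a from -0.10 to 0.08. Replicate numbers did not pair the samples: correlations of deviations at the same number were 0.009, -0.499 and -0.268 in 189N3 and between -0.581 and -0.029 in Dp(16)1Yey/+. The members' fold changes in the models had SEs between 0.16 and 0.29 as deposited, with 3 or 4 libraries in each group.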
